A study of Mus with 6 samples.

Results

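Corticosteroid receptors and their target genes were followed in the basolateral amygdala of Cntnap4 knockout mice. The set held 8 genes, found by gene name in a table of 54532 genes: the receptors Nr3c1 and Nr3c2, the receptor co-chaperones Fkbp5 and Fkbp4, the hormone-activating enzyme Hsd11b1, and the hormone-induced genes Sgk1, Tsc22d3 and Zbtb16. The rule takes them by name, and the set was proposed with earlier results of these data known. The samples were 3 libraries labelled CNTNAP4-KO (KO) and 3 labelled wild type (WT), all from female mice. No label gives the strain, the age, the knockout allele or a treatment, and nothing states that the libraries came from separate animals, so p-values measure only the spread between these libraries.

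Corticosterone, the main glucocorticoid of mice, acts through 2 nuclear receptors that share many of the same DNA sites. The mineralocorticoid receptor (Nr3c2) binds the hormone tightly and is largely occupied at resting levels, whereas the glucocorticoid receptor (Nr3c1) binds it less tightly and is occupied during stress and at the daily peak. Without hormone the glucocorticoid receptor is held in a heat shock protein complex. There the product of Fkbp5 lowers its affinity for hormone and that of Fkbp4 favours its transport to the nucleus. Fkbp5, Sgk1, Tsc22d3 and Zbtb16 are induced by the activated receptor, so that Fkbp5 closes a negative feedback loop. In the basolateral amygdala, glucocorticoid signalling is known to strengthen the consolidation of fear memory.

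Expression was given as FPKM, fragments per kilobase of gene scaled to the size of the library, so levels can be set side by side between genes. The reads behind the values summed to 15933029 to 17789798 per library, and each of the 8 genes had between 151 and 3519 reads in every library. Cntnap4 was at 1.08, 1.19 and 1.28 FPKM in KO1 to KO3, against 3.53, 3.90 and 2.15 FPKM in WT1 to WT3 (limma log2 fold change -0.92, SE 0.18, adjusted p = 0.302). The libraries differed in the summed levels of cell type and region markers. Summed markers of striatal projection neurons were at 43.5, 36.2 and 195 FPKM in KO1 to KO3 and at 60.3, 47.7 and 465 FPKM in WT1 to WT3, so both libraries numbered 3 stood apart. Summed oligodendrocyte markers were at 527, 741 and 655 FPKM in KO and at 254, 495 and 736 FPKM in WT, lowest in WT1. Microglial markers (124 to 158 FPKM in KO, 176 to 236 in WT), oligodendrocyte precursor markers (79.9 to 81.7 and 95.3 to 123), meningeal markers (12.3 to 31.2 and 31.2 to 65.7, a near tie) and hypothalamic markers (2.16 to 3.77 and 4.29 to 34.3) did not overlap between the groups, with KO below WT. Projection neuron markers, led by the vesicular glutamate transporter Slc17a7 at 201 to 364 FPKM in KO and 208 to 285 FPKM in WT, were present throughout (summed, 739 to 974 and 703 to 837). Of the 8 projection neuron markers, 7 had a positive and 1 a negative limma log2 fold change. For 3 of them KO lay above WT without overlap and for 0 below, against 11.9% and 10.1% of the 13087 genes tested. All 8 oligodendrocyte markers had a positive value, but 0 of them separated the groups. KO lay below WT without overlap for 5 of 8 microglial and 5 of 6 oligodendrocyte precursor markers, against 10.1% of all genes. For meningeal markers it was 2 of 7 and for the tested hypothalamic markers 1 of 2. In these 4 lists 0 lay above WT, and each tested marker had a negative log2 fold change. In these bulk samples fewer cells of a type and less RNA per cell cannot be told apart.

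KO and WT were compared with limma on log2(FPKM + 1), over the 13087 genes that averaged 1 FPKM or more, with Benjamini-Hochberg adjustment over all of them. A log2 fold change is KO minus WT on that scale. All 8 genes of the set passed the filter, and 0 of 8 passed the adjusted threshold of 0.05, as did 0.00764% of all genes tested. Without adjustment 2 of the 8 had p under 0.05, both higher in KO, and limma's voom on the recovered reads gave 0 adjusted calls and 3 unadjusted ones, all higher. Among all genes tested 7.05% were higher in KO at that level in limma and 6.83% with voom. The 8 genes had a median log2 fold change of 0.30, with 6 positive and 2 negative, against a median of 0.01 and 51.3% positive over all genes. The median of the 8 genes was 0.40 without WT2, 0.36 with scaling to a common sum and 0.33 without KO3. It was 0.26 with the trend with gene length removed and 0.14 over the 7 genes left at a mean of 5 FPKM or more. It was 0.19 without WT3 and 0.08 with sample weights. In each of the last pair of settings 4 of the 8 genes were positive and 4 negative. With the replicate number as a block 3 of the 8 had an unadjusted p under 0.05, all higher in KO, against 7.86% of all genes in that fit.

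**Figure D1:**
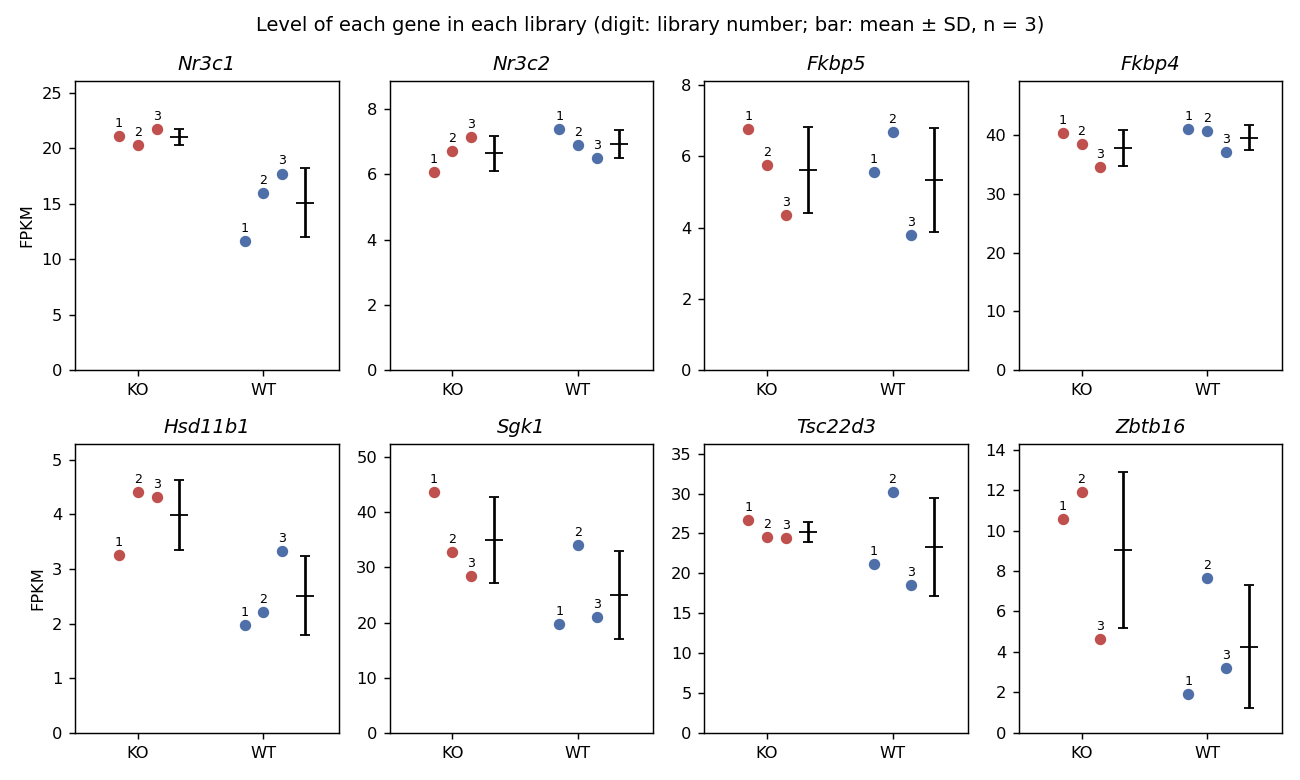
Level of the 8 genes in FPKM (vertical axes, each from 0) in the KO libraries (red, left) and WT libraries (blue, right). Points are single libraries marked with their number, and bars are the mean ± SD over 3 libraries. Nr3c1 is the gene whose 3 KO points all lie above its 3 WT points.

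In order of level over the 6 libraries, Fkbp4 came first at a mean of 38.7 FPKM, followed by Sgk1 at 29.97, Tsc22d3 at 24.2 and Nr3c1 at 18.1 FPKM. Nr3c2 at 6.79, Zbtb16 at 6.65, Fkbp5 at 5.48 and Hsd11b1 at 3.25 FPKM formed a lower group. Fkbp4 lay above 90.7% of the genes tested and Hsd11b1 above 28.6%. Neighbours in the order were not always separated. Fkbp4 was above Sgk1 in 5 of 6 libraries, Sgk1 above Tsc22d3 in 5 of 6, Nr3c2 above Zbtb16 in 3 of 6, and Zbtb16 above Fkbp5 in 4 of 6. Tsc22d3 was above Nr3c1, Nr3c1 above Nr3c2, and Fkbp5 above Hsd11b1 in 6 of 6 libraries.

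Nr3c1, the glucocorticoid receptor gene (ENSMUSG00000024431), was higher in KO on average. It lies on the minus strand of chromosome 18 from 39410545 to 39491301, in the coordinates of the table, for which the submitters' processing notes name GRCm38 and mm10. Its level was 21.1, 20.3 and 21.7 FPKM in KO1 to KO3, against 11.7, 15.9 and 17.7 FPKM in WT1 to WT3. The groups did not overlap. The KO libraries lay close together (SD 0.72 FPKM), while the WT libraries were spread (SD 3.12), with WT1 well below the other two. The mean was 1.39 times that of WT, and the log2 fold change was 0.47 (SE 0.15, 95% interval 0.11 to 0.83, limma p = 0.0169, adjusted p = 0.303; exact permutation p = 0.1). The last is the smallest p that 3 libraries against 3 allow. Non-overlap with KO on top was seen for 11.9% of all genes tested, so 1 of 8 genes is close to that background. Without WT1 the log2 fold change was 0.31, and with the length trend removed it was 0.39. In WT the order of the Nr3c1 levels was that of the summed oligodendrocyte, endothelial and blood markers. Endothelial markers summed to 73.96, 90.4 and 136 FPKM and blood markers to 133, 167 and 431 FPKM in WT1 to WT3. In KO the order of Nr3c1 was that of none of these lists. The part of these markers in the difference was not tested.

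Nr3c2, which encodes the mineralocorticoid receptor (ENSMUSG00000031618, chromosome 8, 76899442 to 77245012, plus strand), was nearly level across the libraries. It was at 6.08, 6.72 and 7.14 FPKM in KO1 to KO3 and at 7.38, 6.91 and 6.50 FPKM in WT1 to WT3. The groups overlapped, and the whole range spanned 1.21-fold. The log2 fold change was -0.05 (SE 0.10, 95% interval -0.29 to 0.18, limma adjusted p = 0.814). Of all genes tested, 85.7% varied more within groups than Nr3c2, by the pooled SD of the log2 values.

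Between the groups the balance of the receptor transcripts differed in the direction of Nr3c1, but within KO it did not follow Nr3c1. KO1 had the highest ratio and the lowest Nr3c2 level, 6.08 FPKM. WT1 had the lowest ratio, the lowest Nr3c1 level and the highest Nr3c2 level, 7.38 FPKM. The ratio of Nr3c1 to Nr3c2, in FPKM within a library, was 3.47, 3.02 and 3.04 in KO1 to KO3, against 1.58, 2.31 and 2.73 in WT1 to WT3. The lowest KO ratio was above the highest WT ratio, by a margin smaller than the spread among the WT libraries. The mean ratio was 3.18 ± 0.25 in KO and 2.20 ± 0.58 in WT (SD, n = 3 each), a log2 difference of 0.56. The exact two-sided permutation p was 0.1, the smallest possible. The ratio of transcripts says nothing of the ratio of receptor proteins.

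**Figure D2:**
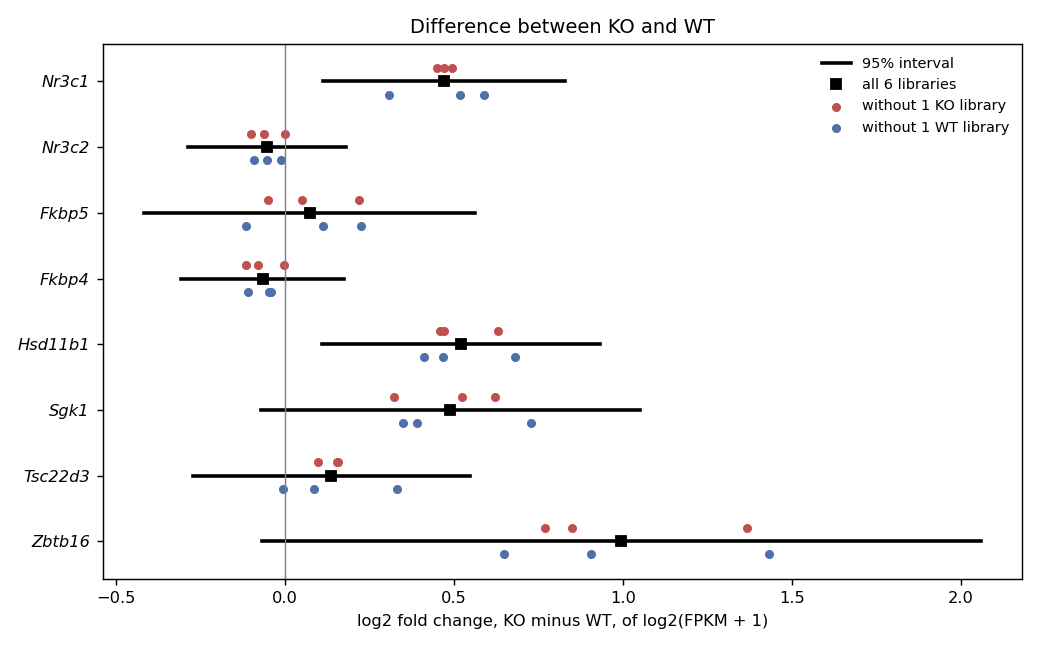
Log2 fold change of the 8 genes, KO minus WT (horizontal axis, log2(FPKM + 1) scale). Squares use all 6 libraries with the 95% interval from limma as a line, and points leave out 1 KO library (red, above) or 1 WT library (blue, below). The intervals of Nr3c1 (0.11 to 0.83) and Hsd11b1 (0.11 to 0.93) lie above 0, before adjustment for the number of genes, while the points of Fkbp5 fall on both sides of 0.

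The co-chaperones did not separate the groups. Fkbp5 (ENSMUSG00000024222, chromosome 17, 28399094 to 28517527, minus strand), the inhibitory co-chaperone, was at 6.76, 5.76 and 4.35 FPKM in KO1 to KO3 and at 5.57, 6.67 and 3.78 FPKM in WT1 to WT3. The library numbered 3 was the lowest of each group. The log2 fold change was 0.07 (SE 0.21, 95% interval -0.42 to 0.56, limma adjusted p = 0.880), and it was -0.12 without WT3 and -0.05 without KO1. Striatal markers were highest in WT3 and KO3. Without those 2 libraries the Fkbp5 value was 0.03, and the part of the striatal signal in the low levels was not tested.

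Fkbp4 (ENSMUSG00000030357, chromosome 6, 128429735 to 128438677, minus strand), which promotes nuclear transport of the receptor, was at 40.4, 38.5 and 34.5 FPKM in KO1 to KO3 and at 41.01, 40.6 and 37.1 FPKM in WT1 to WT3. The groups overlapped within a range of 1.19-fold, and the log2 fold change was -0.07 (SE 0.10, 95% interval -0.31 to 0.17, limma adjusted p = 0.774). Per library, Fkbp5 had 605 to 1051 reads and Fkbp4 1590 to 2144, over listed lengths of 9468 and 2795 bases. In FPKM, which divides by that length, Fkbp5 stood at a small share of the level of its antagonist in every library. The ratio of Fkbp5 to Fkbp4 was 0.167, 0.150 and 0.126 in KO1 to KO3 and 0.136, 0.164 and 0.102 in WT1 to WT3, with overlapping groups (log2 difference 0.16, exact permutation p = 0.6).

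Hsd11b1 encodes the reductase that regenerates active corticosterone from its inert keto form inside cells (ENSMUSG00000016194, chromosome 1, 193221634 to 193264075, minus strand). It was higher in KO on average, at 3.25, 4.41 and 4.31 FPKM in KO1 to KO3, against 1.97, 2.22 and 3.33 FPKM in WT1 to WT3. The groups overlapped by a narrow margin, since WT3 was just above KO1. It had the fewest reads of the set, 151 to 325 per library. The mean was 1.59 times that of WT, and the log2 fold change was 0.52 (SE 0.17, 95% interval 0.11 to 0.93, limma p = 0.0201, adjusted p = 0.304; exact permutation p = 0.2). Over 17 alternative settings, in 16 of which it was tested, the value stayed between 0.41 and 0.68 and the adjusted p between 0.0993 and 0.685. Within each group the order of the Hsd11b1 levels was that of the summed oligodendrocyte markers (527, 741 and 655 FPKM in KO1 to KO3, 254, 495 and 736 FPKM in WT1 to WT3). Summed blood markers had the same order in each group. They were at 166, 185 and 181 FPKM in KO1 to KO3 and 133, 167 and 431 FPKM in WT1 to WT3. The part of either marker list was not tested.

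Of the hormone-induced genes, Sgk1, a kinase that acts on ion transporters and channels, was the most abundant (ENSMUSG00000019970, chromosome 10, 21882184 to 21999903, plus strand). It was at 43.7, 32.8 and 28.4 FPKM in KO1 to KO3, against 19.8, 34.1 and 21.03 FPKM in WT1 to WT3. The KO mean was 1.40 times that of WT, but WT2 lay above KO2 and KO3. The log2 fold change was 0.49 (SE 0.24, 95% interval -0.07 to 1.05, limma p = 0.0777, adjusted p = 0.384; exact permutation p = 0.3). Without WT2 it was 0.73, and without KO1 it was 0.32.

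Tsc22d3, also known as Gilz, encodes an anti-inflammatory leucine zipper protein (ENSMUSG00000031431, X chromosome, 140539528 to 140600659, minus strand). It was at 26.6, 24.5 and 24.5 FPKM in KO1 to KO3 and at 21.1, 30.2 and 18.5 FPKM in WT1 to WT3. All KO values lay inside the WT range. The log2 fold change was 0.14 (SE 0.17, 95% interval -0.27 to 0.55, limma adjusted p = 0.719), and without WT3 it was -0.01.

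Zbtb16, a zinc finger transcription factor also called Plzf, varied most (ENSMUSG00000066687, chromosome 9, 48654297 to 48836222, minus strand). It was at 10.6, 11.9 and 4.65 FPKM in KO1 to KO3, against 1.93, 7.68 and 3.18 FPKM in WT1 to WT3, a 6.16-fold range. KO3 lay below WT2, so the groups overlapped. The KO mean was 2.12 times that of WT, and the log2 fold change was 1.00 (SE 0.45, 95% interval -0.07 to 2.06, limma p = 0.0624, adjusted p = 0.368; exact permutation p = 0.2). Without WT1 it was 0.65, and without both libraries numbered 3 it was 1.28. With the replicate block its limma adjusted p was 0.240. Of all genes tested, 2.01% varied more within groups.

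A pattern between libraries ran through the 4 induced genes. In WT, WT2 was the highest library for Fkbp5, Sgk1, Tsc22d3 and Zbtb16 alike. In KO, KO1 was the highest for Fkbp5, Sgk1 and Tsc22d3, while KO2 was the highest for Zbtb16. The receptors did not share it, since WT3 was the highest WT library for Nr3c1 and WT1 for Nr3c2. This pattern was noticed after the values were seen and is given as a description.

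It extended to a list of 35 other genes reported to respond to glucocorticoids, of which 32 were tested. WT2 was the highest WT library for 21 of the 32 (65.6%), against 30.9% of all genes tested. KO1 was the highest KO library for 20 of the 32 (62.5%), against 40.8% of all genes. The median deviation of the list from the group mean was 0.17, -0.07 and -0.09 log2 units in KO1 to KO3, and -0.18, 0.23 and -0.12 in WT1 to WT3. Over all genes tested it lay between -0.01 and 0.02 in every library. Receptor coregulators showed like shares, with WT2 highest for 11 of 17 and KO1 for 12 of 17 and median deviations of 0.11, 0.05 and -0.14 in KO1 to KO3 and -0.17, 0.15 and 0.01 in WT1 to WT3. Among genes with a listed length of at least 5000 bases, which is not the genomic span, WT2 was highest for 39.0% and KO1 for 43.0%. Summed projection neuron markers were also highest in KO1 and WT2, at 974, 863 and 739 FPKM in KO1 to KO3 and at 703, 837 and 803 FPKM in WT1 to WT3, with median deviations of 0.17, 0.02 and -0.12 in KO and -0.12, 0.13 and 0.04 in WT. Of these 8 markers KO1 was the highest KO library for 6 and WT2 the highest WT library for 3. The pattern is therefore not particular to the hormone-induced genes. The parts of neuronal content and of gene length in it were not tested.

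Single genes of that list, named here after their values were seen, showed the size of the spread. Per1, a clock gene with a glucocorticoid response element, was at 42.3, 26.03 and 19.8 FPKM in KO1 to KO3 and at 17.2, 37.5 and 17.1 FPKM in WT1 to WT3. Irs2, an insulin receptor substrate, was at 32.8, 18.2 and 12.7 FPKM in KO and at 15.6, 34.4 and 8.67 FPKM in WT. Cdkn1a, a cell cycle inhibitor, was at 8.65, 4.54 and 4.41 FPKM in KO and at 4.23, 8.50 and 2.80 FPKM in WT. In all 3 genes KO1 and WT2 stood well above the other libraries of their group, and the groups overlapped. Dusp1, a phosphatase of MAP kinases, followed at 33.9, 22.3 and 20.5 FPKM in KO and 14.6, 29.9 and 18.4 FPKM in WT. Klf9, a zinc finger factor, was at 98.4, 76.3 and 58.5 FPKM in KO and 33.1, 72.3 and 61.4 FPKM in WT, and had its lowest value in WT1. Other genes of the list were highest in KO3 and WT3. Glul was at 391, 422 and 437 FPKM in KO and 263, 423 and 525 FPKM in WT. Fam107a was at 104, 122 and 140 FPKM in KO and 63.1, 112 and 150 FPKM in WT. Of the 32 genes, KO3 was the highest KO library for 8 and WT3 the highest WT library for 5.

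**Figure D3:**
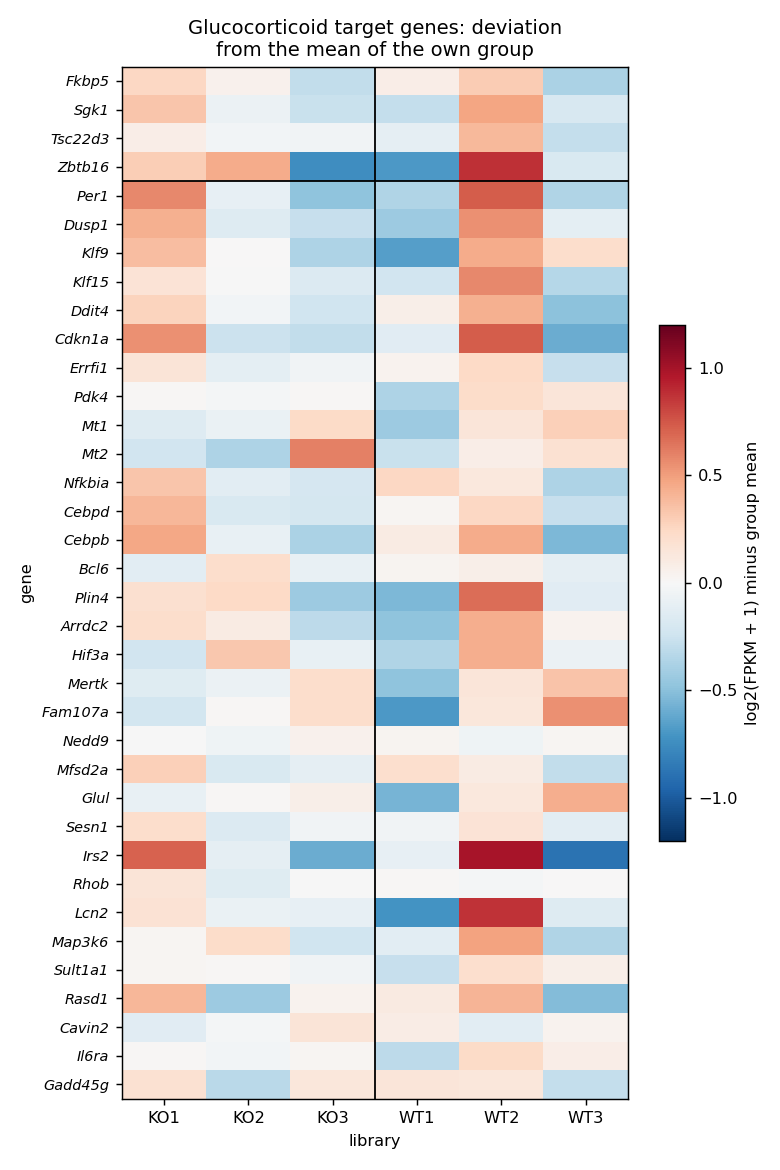
Deviation of log2(FPKM + 1) from the mean of the library's own group (colour, red above and blue below) for Fkbp5, Sgk1, Tsc22d3 and Zbtb16 (top) and 32 other glucocorticoid target genes (below the line) in the 3 KO and 3 WT libraries. The WT2 column is mostly red, with WT2 the highest WT library for 21 of the 32 genes, and so is KO1 in KO for 20 of the 32.

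Between KO and WT the 32 tested target genes did not move one way. Of these, 0 passed the threshold in limma, with 0 higher and 2 lower at an unadjusted p under 0.05, and 18 had a positive and 14 a negative log2 fold change. The median was 0.07, and it was -0.09 without WT1. Those with the smallest p were lower in KO. Gadd45g, a stress-induced growth arrest gene, was at 7.27, 4.82 and 6.98 FPKM in KO1 to KO3 and 12.9, 12.9 and 9.34 FPKM in WT1 to WT3, without overlap (log2 fold change -0.79, limma adjusted p = 0.302). Rasd1, a Ras-like protein first found as dexamethasone-induced, was at 4.72, 2.22 and 3.47 FPKM in KO and 6.60, 8.40 and 3.93 FPKM in WT (adjusted p = 0.342 in limma). Nedd9, an adhesion scaffold, was at 1.41 to 1.60 FPKM in KO and 1.86 to 2.03 FPKM in WT (adjusted p = 0.366 in limma). In KO 2 of the 32 lay below WT without overlap and 0 above, against 10.1% and 11.9% of all genes. Crispld2, Angptl4 and Tat were under the filter.

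The receptor's wider machinery was described through 9 lists with 144 genes, of which 116 were tested. None of the 116 passed the threshold (0 in limma and 0 with voom). Unadjusted p under 0.05 was reached by 9 higher and 15 lower genes in limma and by 10 and 17 with voom. For all genes tested the limma shares were 7.05% higher and 7.25% lower. With voom 894 higher and 993 lower of the 13087 genes reached that level.

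The chaperone complex that holds the receptor was level. Its 17 genes had a median log2 fold change of 0.00, with 9 positive and 8 negative. Stub1, a ubiquitin ligase that attends the complex, was at 30.7, 25.3 and 23.5 FPKM in KO1 to KO3 and 38.9, 34.8 and 29.6 FPKM in WT1 to WT3 (log2 fold change -0.37, limma adjusted p = 0.330). Bag1, a nucleotide exchange factor of Hsp70 chaperones, was at 63.9 to 67.5 FPKM in KO and 71.6 to 82.1 FPKM in WT, without overlap. Of the 17 genes, 1 lay below WT without overlap and 1 above, against 10.1% and 11.9% of all genes. Fkbpl, an Hsp90 co-chaperone related to Fkbp5, was at 3.32 to 4.15 FPKM in KO and 3.72 to 5.44 FPKM in WT.

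Other members of the FKBP family were mostly lower in KO. Of 11 tested, 9 had lower means in KO (median log2 fold change -0.29), and for 6 the highest KO value lay below the lowest WT value, against 10.1% of all genes. Fkbp2, of the endoplasmic reticulum, was at 54.7, 57.8 and 51.9 FPKM in KO1 to KO3, against 67.7, 64.3 and 81.2 FPKM in WT1 to WT3 (limma adjusted p = 0.303). Fkbp8, a mitochondrial membrane protein, was at 65.3, 62.5 and 53.9 FPKM in KO, against 78.5, 72.9 and 70.8 FPKM in WT (limma adjusted p = 0.328). Fkbp10, a collagen chaperone, was at 1.36 to 2.45 FPKM in KO and 2.62 to 2.90 FPKM in WT. Their median was -0.17 without WT1 and -0.24 with the length trend removed. Fkbp5 and Fkbp4, at 0.07 and -0.07, lay above that median.

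Coregulators of the receptor were mostly higher in KO, with 15 of 17 positive and a median of 0.22. Removing the length trend brought the median to 0.09, and leaving out WT1 to 0.11. Ncoa2, the coactivator also known as Grip1, was at 9.57, 9.20 and 8.99 FPKM in KO1 to KO3, against 6.23, 7.58 and 7.60 FPKM in WT1 to WT3, without overlap (log2 fold change 0.34, limma adjusted p = 0.303). Of the 17 coregulators, 3 lay above WT without overlap and 1 below, against 11.9% and 10.1% of all genes. Ncoa3, a second coactivator, was at 5.52 to 7.01 FPKM in KO and 3.48 to 4.92 FPKM in WT. The corepressor Ncor1 was at 19.7 to 24.4 FPKM in KO and 13.8 to 19.7 FPKM in WT. The listed lengths of the coregulator genes had a median of 8753 bases, against 4171 over all genes tested. A listed length is not the genomic span, since Ncoa1 has 8576 bases but runs from 4247362 to 4477182.

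Among other steroid receptors, Pgr, the progesterone receptor gene, was at 7.94, 8.32 and 5.53 FPKM in KO1 to KO3, against 2.94, 5.17 and 4.71 FPKM in WT1 to WT3 (log2 fold change 0.66, limma adjusted p = 0.303). Its KO libraries lay above all WT libraries, which was seen for 11.9% of all genes tested. The oestrogen receptor genes Esr1 and Esr2 were under the filter.

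Around Sgk1, 13 of 19 tested kinases, regulators and substrates were positive, with a median of 0.15, which was -0.02 with the length trend removed and 0.06 without WT1. Rictor, a subunit of the mTOR complex that activates Sgk1, was at 4.36, 4.57 and 4.71 FPKM in KO1 to KO3, against 3.01, 3.57 and 3.50 FPKM in WT1 to WT3 (limma adjusted p = 0.302). Stk39, a kinase that controls chloride cotransporters, was at 15.5 to 18.6 FPKM in KO and 13.7 to 13.8 FPKM in WT. Foxo1, a transcription factor that Sgk1 can phosphorylate, was lower in KO, at 2.35 to 4.20 FPKM, against 4.52 to 5.61 FPKM in WT. None of these 3, chosen for the smallest p of the list, overlapped between the groups. Of the 19, 4 lay above WT without overlap (21.1%) and 1 below (5.26%), against 11.9% and 10.1% of all genes. Sgk2, Scnn1b, Scnn1g and Slc12a3 were under the filter.

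Of genes for steroid synthesis, metabolism and transport 8 of 16 were tested, 4 with a positive and 4 with a negative log2 fold change (median -0.07). Ferredoxin (Fdx1) and its reductase (Fdxr), which pass electrons to mitochondrial steroid-making enzymes, were at 2.51 to 2.80 and 2.06 to 2.49 FPKM in KO, against 3.53 to 4.44 and 2.76 to 3.76 FPKM in WT, without overlap (limma adjusted p = 0.302 and 0.321). In KO 2 of the 8 tested genes lay below WT without overlap and 0 above, against 10.1% and 11.9% of all genes. Por, which serves microsomal cytochrome P450 enzymes, was at 16.03 to 21.01 FPKM in KO and 17.7 to 27.2 FPKM in WT. Cyp11b1, Cyp11b2 and Cyp21a1, enzymes of the adrenal pathway to corticosteroids, were listed at 0 in all 6 libraries. Hsd11b2, which inactivates corticosterone, was at 0 to 0.033 FPKM in KO and at 0 in WT. H6pd, which supplies the cofactor for Hsd11b1, was at 1.93, 1.89 and 1.74 FPKM in KO and 0.83, 1.61 and 2.30 FPKM in WT. It was named after its values were seen.

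Among the other Tsc22 domain genes, Tsc22d4 was at 8.22 to 9.81 FPKM in KO and 10.2 to 12.3 FPKM in WT (limma adjusted p = 0.344). Tsc22d2 was at 5.08 to 6.17 FPKM in KO and 4.19 to 5.84 FPKM in WT, and Tsc22d1 at 47.2 to 57.9 FPKM in KO and 46.4 to 59.9 FPKM in WT. The 3 genes had a median log2 fold change of -0.04.

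**Figure D4:**
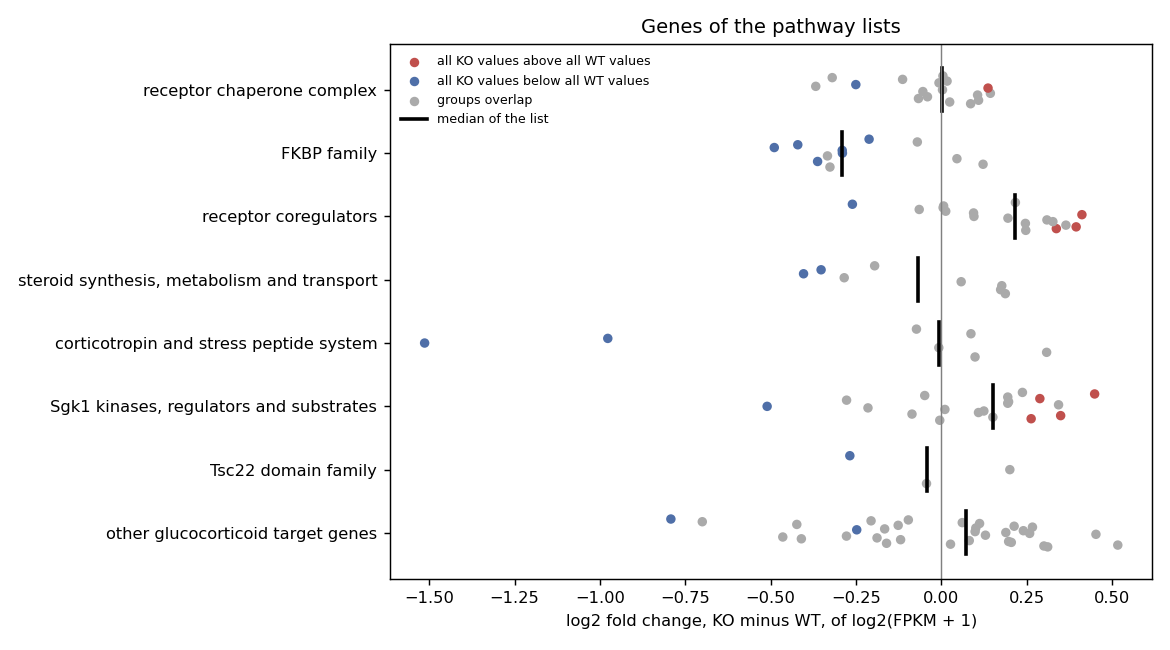
Log2 fold change, KO minus WT (horizontal axis, log2(FPKM + 1) scale), of each tested gene in 8 of the lists around the receptors. Red points have all KO values above all WT values, blue points all KO values below, grey points overlap, and black lines are list medians, from -0.29 for the FKBP family to 0.22 for the coregulators.

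The genes whose course over the 6 libraries was most like that of the induced genes were found by the root mean square difference of their centred log2 values. For Fkbp5 these were Armcx4 (0.039 log2 units), Sobp (0.042) and Zfp697 (0.056). For Sgk1 they were Plxna2 (0.083), a semaphorin co-receptor, Kcnj6 (0.088), a potassium channel, and Arfgef3 (0.091). For Tsc22d3 they were Cited1 (0.055), Aff2 (0.071) and Grk3 (0.072), a receptor kinase. None of the 9 is on the list of glucocorticoid target genes. With 6 values and 13087 genes, a gene can come this close without any relation.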

How the data were processed

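Libraries came from basolateral amygdala RNA (Qiagen columns, SMARTER mRNA kit, per the labels' protocols). The authors deposited 1 table of FPKM per gene and library, with gene name, position and length per the file headers. The submitters' processing notes name GRCm38 and mm10; no source used here names the aligner, the counter or the use of strand. Each library's FPKM times gene length were whole multiples of a fixed step (100% of values, tolerance 0.01 reads), which gave reads per gene.

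Values were analysed as log2(FPKM + 1) in R 4.3.3 with limma 3.58.1 (variance trend, two-sided, no block) and adjusted over 13087 genes. The fit was tested on simulated data. Same-numbered KO and WT libraries deviated together across genes (correlations 0.175, 0.145 and 0.330), although KO1 with WT2 gave 0.283. They were therefore taken as paired in an alternative fit, which called 0 genes in place of 1 and changed no call among the genes described. There were 17 alternatives: the replicate block, each library left out, both libraries numbered 3 left out, another pseudocount, other filters, scalings and weights, and voom on the recovered reads.

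The genes and lists were chosen with earlier results of these data known. The rule for naming took the 8 genes, the 3 smallest p of each list of pathway genes, and the 3 genes most like Fkbp5, Sgk1 and Tsc22d3; other genes are said to be named after their values were seen. A gene that the rule takes is not reported here. Of 13 marker lists, those that touch a result are given above and the rest in the closing section. Avp, Oxt and Pomc stand in a pathway and a marker list, as does Abcb1a. Cavin2 was matched by an older symbol through the RefSeq gene table. Overlapping genes and near-identical copies could not be told apart without the counting method.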

Additional observations from a re-analysis of the deposited data

How the results depend on the processing

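Over 17 alternatives, 0 of the 8 genes and 0 of the list genes tested (83 to 140 of the 144, by filter) passed the threshold in each alternative. Nr3c1 (0.31 to 0.59), Hsd11b1 (0.41 to 0.68, 16 alternatives, since it was under a mean of 5 FPKM), Sgk1 (0.22 to 0.73), Zbtb16 (0.65 to 1.43) and Fkbp4 (-0.11 to -0.0034) kept the sign of the log2 fold change in each alternative in which they were tested. Fkbp5 changed sign with the length trend removed (-0.040), with sample weights (-0.049), without WT3 (-0.12) and without KO1 (-0.05). Tsc22d3 changed sign with sample weights (-0.081) and without WT3 (-0.0056), and Nr3c2 without KO1 (0.0013). Leaving out single libraries gave 0.31 to 0.59 for Nr3c1, -0.10 to 0.0013 for Nr3c2, -0.12 to 0.22 for Fkbp5 and -0.0056 to 0.33 for Tsc22d3. The cause was not tested. Over all genes 1 was called, against 0 with the replicate block, with both libraries numbered 3 left out, with no filter, with quantile normalization, with the length trend removed and with no variance trend, and 0 to 9 with 1 library left out (9 without WT3). Scaling to a common sum moved the median of all genes to 0.06. Depth limits Hsd11b1 most, at 151 to 325 reads per library; intervals from limma cover the spread between libraries.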

Other observations

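Stress peptide genes near the corticosteroid axis were mostly low. Of 16 listed, 7 were tested with limma, 0 passed the threshold and 1 had an unadjusted p under 0.05. Oxtr, the oxytocin receptor gene, was at 2.00, 0.77 and 1.27 FPKM in KO1 to KO3, against 5.47, 3.57 and 2.10 FPKM in WT1 to WT3 (log2 fold change -0.98, limma adjusted p = 0.303). Avp, the vasopressin gene, was at 0.53, 0.60 and 0.11 FPKM in KO, against 11.3, 2.16 and 0.62 FPKM in WT, on 5, 6 and 1 reads in KO and 122, 20 and 6 reads in WT. It passed the filter through its WT values, and KO2 and WT3 had the same number of reads. Crhr1, the main receptor of corticotropin-releasing hormone, was at 9.87 to 11.7 FPKM in KO and 6.998 to 10.4 FPKM in WT. Crh itself, named after its values were seen, was at 5.20 to 6.64 FPKM in KO and 3.32 to 9.03 FPKM in WT. Summed hypothalamic markers, which include Avp, were also lower in KO (2.16 to 3.77 FPKM, against 4.29 to 34.3 FPKM in WT), and their part in these values was not tested.

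The remaining marker lists, and the endothelial and blood lists named above, overlapped between the groups. Summed levels were 395 to 466 FPKM in KO and 424 to 570 FPKM in WT for astrocytes, 77.3 to 104 and 73.96 to 136 for endothelial cells, 66.98 to 89.6 and 75.4 to 140 for pericytes and smooth muscle, 4.34 to 24.3 and 17.04 to 51.8 for choroid plexus, 166 to 185 and 133 to 431 for blood, and 487 to 551 and 533 to 693 for interneurons.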
